A study of Caenorhabditis elegans with 4 samples.

Results

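The fbxa genes are the F-box A family of the nematode Caenorhabditis elegans, and 171 of them were read on the 4 Affymetrix C. elegans Genome arrays of this study. They were chosen by symbol: a probe set entered if the platform's probe-to-gene table assigned it to 1 gene whose symbol starts with fbxa- and a number. This rule used no measured value and gave 175 probe sets for the 171 genes, out of 17138 genes read by a probe set of a single gene. Of the 171 genes, 44 were above background on at least 1 array, with background defined below.

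F-box proteins are the substrate-binding subunits of SCF ubiquitin ligases, in which the F-box binds a Skp1-related protein (the SKR proteins in C. elegans), which in turn binds a cullin. The ligase attaches ubiquitin to the bound protein, most often marking it for the proteasome. In C. elegans the family has expanded greatly, with many tandem copies and many pseudogenes, and the FBXA proteins carry, behind the F-box, a domain related to the C-terminal part of FOG-2, a germline sex-determination protein. For most fbxa genes no substrate is known. FBXA-75 and FBXA-158 are F-box subunits of a CUL-6 ligase of the intracellular pathogen response, a transcriptional program switched on by microsporidia and viruses.

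The arrays hold RNA of wild-type young adult hermaphrodites. They came from synchronised cultures grown for 3 days on agar with bacteria. The exposed worms then spent 24 h unfed at 20 °C in the buffered salts of K-medium with bisphenol A (BPA), the phthalate diester DEHP, or NP, an abbreviation taken here to mean nonylphenol, which like BPA is a phenol. Doses were set to 1/100 of the median lethal concentration over 24 h for each chemical, so the amounts were not matched between chemicals. Control worms are described only as untreated. Whether they were fed, held in medium or kept for the same time is not stated. The question was how transcript levels of these genes on each exposed array compare with the control. With a single array for every group, nothing here is replicated or tested, and every statement describes these 4 arrays, whose number limits the precision.

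Values given as intensities are the deposited ones. The deposit holds no detection calls. A gene was counted as detected, or above background, where its scaled signal reached the median taken over the probe sets of the 4 arrays together, which corresponds to a deposited intensity of 140.2 (BPA), 127 (DEHP), 109 (NP) and 141 on the control array. Values under the pooled 25th percentile, at intensities between 23.9 and 31, were set to that floor and have no order. A relative log2 change is the log2 difference of 2 arrays after scaling minus that of the median detected gene. The median detected gene stood 0.01, 0.16 and 0.38 log2 above the control with BPA, DEHP and NP before this subtraction. A change was called if it reached 2-fold, or 1 on the log2 scale. The ratio of 3-prime to 5-prime actin control probe sets was 1.22, 1.37 and 1.88 on the BPA, DEHP and NP arrays, against 1.19 on the control array. Among marker lists of the whole worm, all 4 muscle genes had a summed intensity of 12733, 8335 and 5981 on the BPA, DEHP and NP arrays, against 15273 on the control array, with 3 of 4 called lower for DEHP and for NP. The sums of 23 msp sperm genes were 9140, 33596 and 6610, against 10324, with 19 called higher for DEHP and 3 lower for NP. Of 5 neuronal genes, with sums of 5019, 4122 and 4766 against 5197, 3 were called lower for DEHP and 3 for NP. The gene snb-1 made up most of each sum, at 4053 with NP against 3372 on the control array. The other neuronal genes were below the control with NP, down to a relative log2 change of -2.25 for eat-4. The 6 oocyte and germline genes had sums of 35514, 35496 and 31468, against 29726, with none called. The 7 yolk and intestine genes, among them the vitellogenins of the adult hermaphrodite, had sums of 89759, 81419 and 95017, against 75705, and vit-1 was called higher for DEHP. The vitellogenins made up most of these sums. With NP their relative log2 changes were positive, while the intestinal genes elt-2 and ges-1 read -0.76 and -0.67. All markers were detected on at least 1 array, but only 3 of the 5 neuronal and 19 of the 23 msp genes on all 4. The gene eat-4 was under the detection level with DEHP and NP, at 85.6 and 68.3, so the size of its difference is uncertain. The part of RNA quality and of tissue shares in the values below was not tested, and in whole worms fewer cells of a type cannot be told apart from less RNA per cell.

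Most fbxa genes were not above background in any of these young adults. The 44 detected genes are 25.7% of the family, against 53.98% of all genes. By array, 32, 30 and 39 fbxa genes were detected on the BPA, DEHP and NP arrays and 35 on the control array. These are 18.7%, 17.5%, 22.8% and 20.5% of the family, beside 49.5%, 49.2%, 49.6% and 49.3% of all genes. Detection held on all 4 arrays for 26 fbxa genes (15.2%), beside 44.95% of all genes. It held on 3 arrays for 4 fbxa genes, on 2 for 6 and on a single array for 8. Of the last, 4 were detected on the NP array alone, 2 on the DEHP array alone and 2 on the control array alone. These single-array counts are small and have no share over all genes beside them, so they are given as a description. A further 88 genes passed the floor somewhere without reaching the detection level, and 39 genes, or 22.8%, lay under the floor on every array, as did 15.3% of all genes.

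By their brightest array, the 3 genes just inside the detection level were fbxa-207, fbxa-13 and fbxa-80, and the 3 just outside it were fbxa-141, fbxa-170 and fbxa-122. For fbxa-207 the intensities were 118, 98.2 and 111 on the BPA, DEHP and NP arrays and 121 on the control array. For fbxa-141 they were 128, 119 and 85.7, against 86.0 on the control array. These values are close to each other, so membership near the level is a matter of small differences. The intensities of fbxa-13 were 153, 106 and 99.5, against 148, with detection on the BPA and control arrays. Those of fbxa-80 were 82.2, 88.0 and 95.96, against 159, with detection on the control array alone. Outside the level, fbxa-170 had 124, 95.1 and 99.4, against 71.2, and fbxa-122, read by an _s_ probe set, had 61.8, 53.1 and 100.1, against 80.05. Each of them had an array within reach of the level and others well under it.

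The other families of substrate adaptors had detection shares on either side of that of the fbxa genes, and the core of the ligase was almost wholly detected. Of 95 fbxb genes, 4 were detected, and of 44 fbxc genes, 12. Of 85 math and bath genes, whose proteins carry the MATH domain and in many cases a BTB domain that binds cullin 3, 20 were detected. The SCF core list of cul-1, cul-6, rbx-1 and the skr genes had 21 of 22 members detected. All 8 F-box genes with characterised roles were detected on all 4 arrays, among them lin-23 and sel-10, regulators of the cell cycle and of Notch signalling, and fog-2 and ftr-1, the relatives whose shared domain the FBXA proteins carry.

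**Figure D1:**
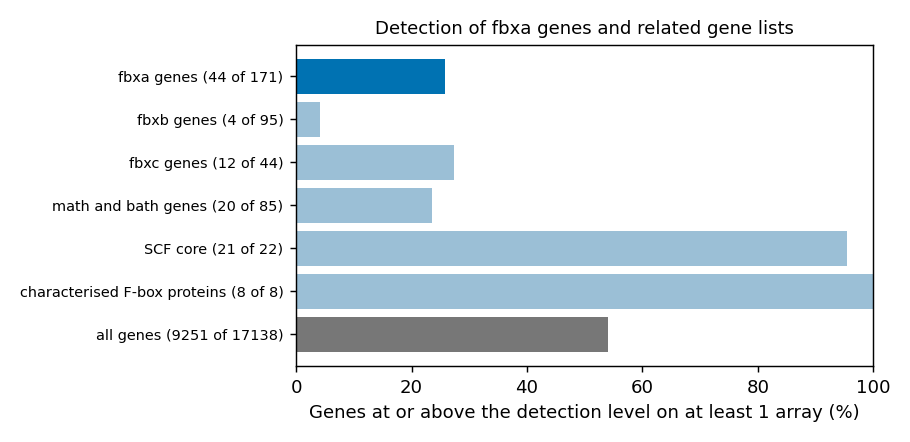
Share of genes at or above the detection level on at least 1 array, in percent, for the fbxa genes, related gene lists and all genes, with the numbers of genes in brackets. The bar of the fbxa genes (25.7%) lies near those of the fbxc and of the math and bath genes and far below those of the SCF core and the characterised F-box genes.

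Annotation and position were not part of the choice of members. In the RefSeq gene table of assembly WBcel235, 135 of the 171 genes are protein-coding and 36 are pseudogenes. Detection was found for 37 of the coding genes (27.4%) and for 7 of the pseudogenes (19.4%): fbxa-123, fbxa-124, fbxa-129, fbxa-193, fbxa-198, fbxa-207 and fbxa-217. By chromosome, detection was found for 7 of 13 fbxa genes on I, 2 of 19 on II, 11 of 45 on III, 3 of 6 on IV, 21 of 74 on V and 0 of 14 on X. Of all genes on the arrays the shares detected were 63.8% on I, 52.5% on II, 67.9% on III, 57.2% on IV, 38.2% on V and 57.7% on X. The fbxa share was the lower one on each chromosome, by counts that are small on most of them, and no difference between chromosomes was tested. The authors' genome build is not named, so no positions are given.

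**Figure D2:**
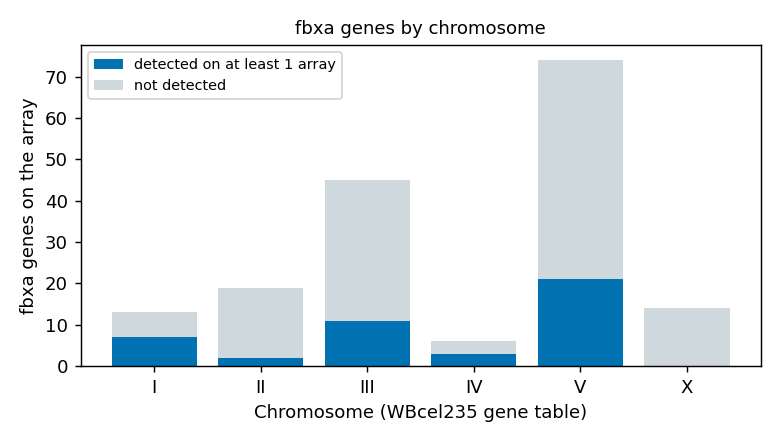
Number of fbxa genes on the arrays by chromosome, split into those detected on at least 1 array (dark) and those not detected (light). Chromosomes V and III hold most of the genes, and none of the 14 on the X chromosome was detected.

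Probe sets with _s_ or _x_ in their name may pick up more than 1 transcript, and such sets read 17 of the 171 genes, and 9 of the 17 (52.9%) were detected. Of the 154 genes read by other probe sets, 35 (22.7%) were detected. In a family of close copies the values of the 9 are uncertain as to the gene. They are marked here with a dagger (†).

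Most of the fbxa genes detected everywhere were near the control on each exposed array, as were most of all genes so detected. Of the 26, 20 were within 1.5-fold of the control on all 3 exposed arrays, which is 76.9%, beside 66.5% of all 7704 genes detected on all 4 arrays. Over the 44 detected genes the median range across the 4 arrays, centred on the median gene of each, was 0.61 log2, beside 0.60 for all detected genes. The range was under 1 log2 for 36 of the 44 (81.8%), beside 79.3% of all detected genes.

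Intensities of different probe sets are not compared here, and the following 10 genes are those whose probe sets had the highest mean signal. For fbxa-215† the intensity was 2337 with BPA, 2331 with DEHP and 2974 with NP, against 1947 on the control array. Its relative log2 changes were 0.27, 0.25 and 0.61, so all exposed arrays were above the control by less than 2-fold. For fbxa-210 the intensities were 1013, 1175 and 1477, against 1057, with relative changes of -0.06, 0.15 and 0.48. For fbxa-101† they were 1036, 1136 and 1324, against 1102, with changes of -0.09, 0.04 and 0.26. In both the NP array was the highest and the BPA array lay just under the control.

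The intensity of fbxa-156† was 403, 469 and 675 on the BPA, DEHP and NP arrays, against 481 on the control array, with a relative change of 0.48 for NP. For fbxa-197 it was 335, 345 and 457, against 374, with 0.29 for NP. These too were highest on the NP array, while the next genes were not. For fbxa-60† the intensities were 410.0, 367 and 340.3, against 425, so the control was the highest. For fbxa-106 they were 420.3, 384 and 346, against 356, and for fbxa-107 they were 414, 341 and 349, against 311. The BPA array was the highest for both, with relative changes of 0.24 and 0.41. For fbxa-114 the intensities were 307, 298 and 346, against 419, and the relative changes of -0.45, -0.50 and -0.28 put every exposed array below the control. Without centring on the median gene, the NP values of fbxa-60† and fbxa-114 were 0.05 and 0.10. The tenth, fbxa-108, is described with the BPA array.

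**Figure D3:**
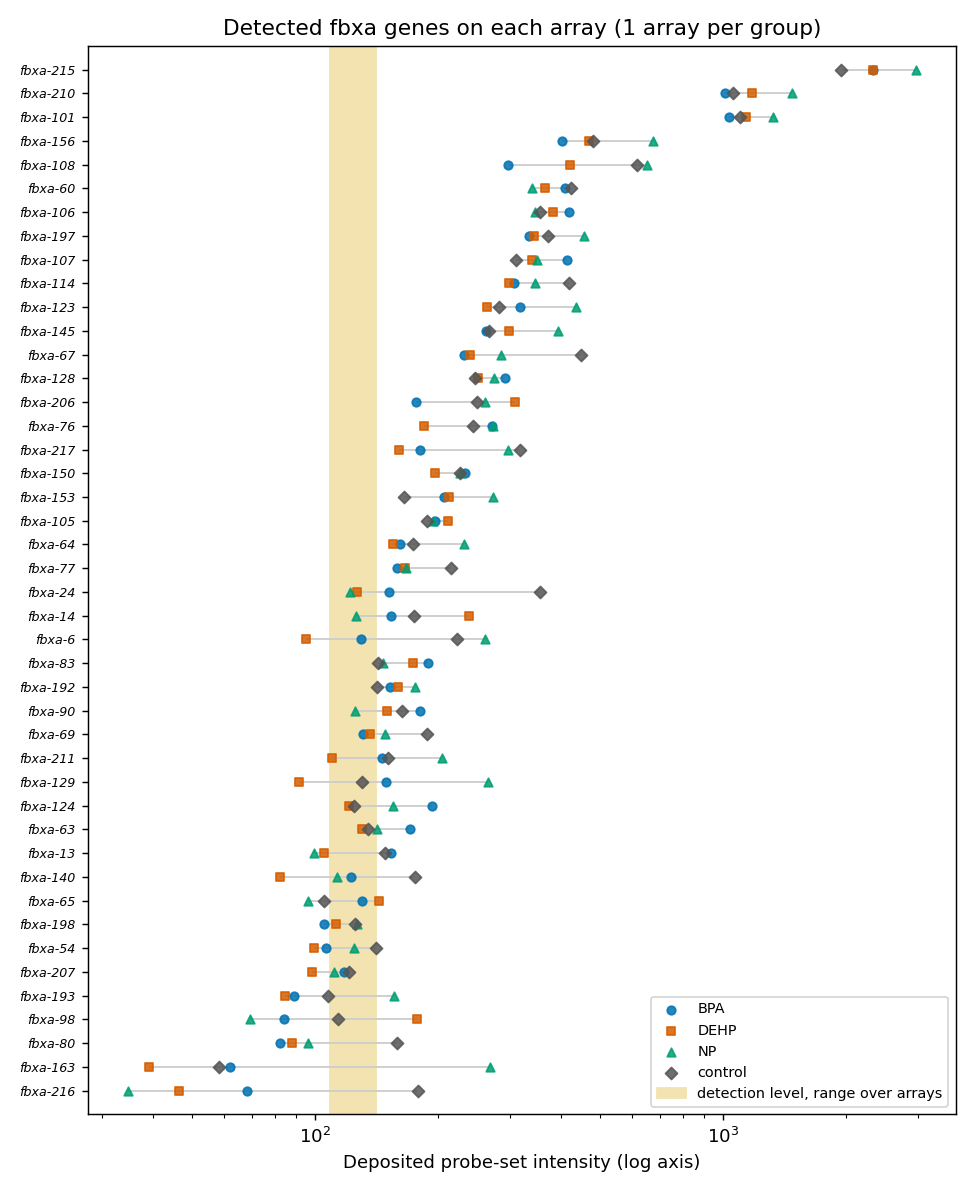
Deposited probe-set intensity (log axis) of the 44 detected fbxa genes on the BPA, DEHP, NP and control arrays, 1 symbol per array, with the range of the detection level over the arrays shaded. Most genes have their 4 symbols close together, while fbxa-216, fbxa-163 and fbxa-24† have 1 array far from the others.

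As a family, the fbxa genes stayed near the median gene on the BPA array, and the few called genes were lower than in the control. The median relative log2 change over the 38 genes detected in this comparison was -0.05, beside 0 for all 8819 detected genes by construction, with 16 above and 22 below 0. None was called higher and 3 were called lower (7.89%), fbxa-216, fbxa-24† and fbxa-108. Of all detected genes 1.3% were called higher, 1.41% lower and 2.71% in either direction. The fbxa genes were mostly dim, and of 4386 genes between the detection level and the pooled 75th percentile, 2.12% were called lower for BPA. A count of 3 on single arrays is small against such a background and is given as a description.

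The gene fbxa-108 was the only called fbxa gene among those detected on all 4 arrays. Its intensity was 297 with BPA, 421 with DEHP and 650.2 with NP, against 617 on the control array. The BPA array was the lowest and the NP array close to the control. The relative log2 changes were -1.05, -0.56 and 0.07.

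On the DEHP array the fbxa genes were again close to the median gene. The median over 38 detected genes was -0.13, with 15 above and 23 below 0. The sign of that median depended on the processing, as it was 0.03 without centring and 0.10 over the brightest genes alone. None was called higher, and 4 were called lower (10.5%), against 2.82% of the 8915 detected genes called higher, 5.72% called lower and 8.54% called in either direction. Among genes between the detection level and the 75th percentile the share called lower was 8.85%. The called genes were fbxa-216, fbxa-24†, fbxa-6 and fbxa-140.

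Both of the genes called with DEHP alone among the comparisons with the control lay under the detection level there, so the size of the difference is uncertain. For fbxa-6 the intensity was 129.96 with BPA, 95.4 with DEHP and 261 with NP, against 222 on the control array. Only the NP and control arrays were above the detection level, and the relative log2 changes were -0.77, -1.23 and 0.23. For fbxa-140 the intensities were 122, 82.1 and 113, against 176, with relative changes of -0.52, -1.11 and -0.64. Every exposed array was below the control, and the DEHP value was under 2-fold after quantile or loess normalization, without the filter and without centring (the range over settings was -1.13 to -0.95).

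On the NP array called genes lay on both sides. The median over 42 detected genes was 0.06, with 25 above and 17 below 0. It was 0.30 after quantile normalization and 0.29 after loess, and turned to -0.02 after a correction for gene span and without a filter on dim genes. Of the 42, 2 were called higher, fbxa-163 and fbxa-129, and 2 lower, fbxa-216 and fbxa-24†. Together they are 9.52%, beside 10.3% of the 8940 detected genes called in either direction, 1.92% called higher and 8.42% called lower. Of 3984 genes between the detection level and the 75th percentile, 2.36% were called higher and 13.6% lower, and of the 37 fbxa genes in that range 2 were called higher and 2 lower. The counts are too small to read a difference from either background. Of the 44 detected genes, 18 (40.9%) had their highest centred value on the NP array, as did 35.95% of all detected genes.

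The gene fbxa-163 had the largest difference above the control. Its intensity was 61.9 with BPA, 39.3 with DEHP and 269 with NP, against 58.2 on the control array. The NP array stood alone, and the other 3 lay under the detection level but above the floor. The relative log2 change for NP was 2.20, and it lay between 2.07 and 2.58 over the settings tried. As fbxa-163 was detected on the NP array alone, it entered the count of detected genes through its high array, and a difference from the others was built in. Its neighbours fbxa-161 and fbxa-162 were not detected on any array, although fbxa-162 passed the floor on 3 of them, with 69.0 on the NP array against 74.5 on the control array.

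For fbxa-129, a pseudogene in the RefSeq table, the intensity was 150 with BPA, 91.4 with DEHP and 266 with NP, against 131 on the control array. The NP array was the highest, with a relative log2 change of 1.02, just past the threshold. It was 0.83 after the correction for gene span, so the call depends on that choice. The BPA change was 0.20, and for DEHP neither array reached the detection level.

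**Figure D4:**
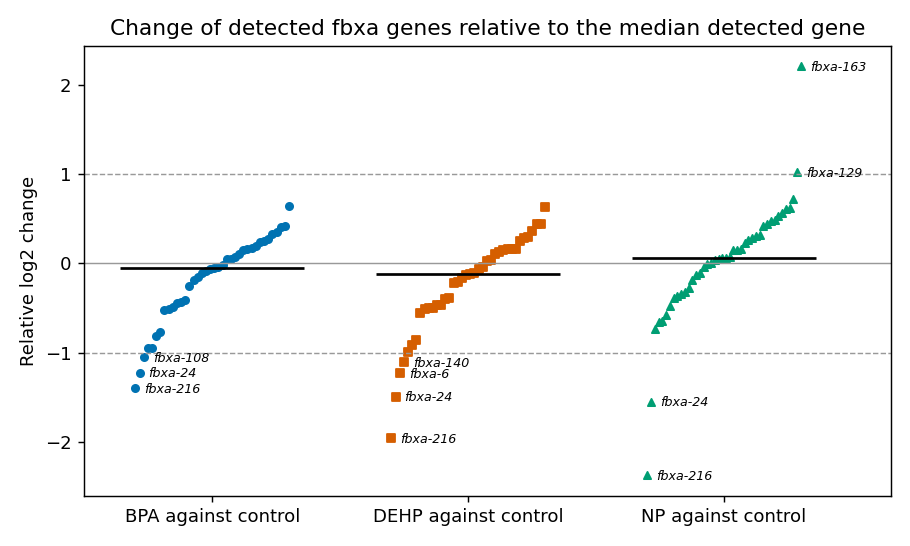
Relative log2 change of each detected fbxa gene on the BPA, DEHP and NP arrays against the control (38, 38 and 42 genes, sorted within each comparison), with the median as a black line, the 2-fold limits dashed and called genes named. The bulk lies between the limits, fbxa-216 and fbxa-24† are below them for all 3, and fbxa-163 lies highest for NP.

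Values at least 2-fold lower on all 3 exposed arrays were found for 2 fbxa genes, and values at least 2-fold higher on all 3 for none. Of the 8598 genes detected in all 3 comparisons, 0.616% were called lower and 0.198% higher in each, and the 2 genes are 5.56% of the 36 fbxa genes so detected. All 3 comparisons share the 1 control array, so that a high reading there lowers all of them. For fbxa-216 the intensity was 68.0 with BPA, 46.4 with DEHP and 34.8 with NP, against 179 on the control array. The relative log2 changes were -1.40, -1.96 and -2.37. The control was the only array above the detection level, so this gene too was detected only through its high array, and no size can be read with confidence from the dim side.

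For fbxa-24† the intensity was 152 with BPA, 127 with DEHP and 122 with NP, against 355 on the control array. The 3 exposed arrays were near each other and near the detection level, and the control stood apart. The relative log2 changes were -1.22, -1.49 and -1.55. Its probe set is of the _x_ type, so copies of the gene may contribute to the signal. Leaving out such probe sets removed fbxa-24 and left 1 gene at least 2-fold lower on all 3 arrays. Further fbxa genes lay below the control on all 3 arrays without reaching 2-fold on each, among them fbxa-67† (-0.95, -0.91 and -0.65) and fbxa-80 (-0.95, -0.86 and -0.73). As fbxa-80 was detected on the control array alone, its lower values elsewhere were built in. Others, such as fbxa-215†, lay above the control on all 3 arrays by less than 2-fold.

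**Figure D5:**
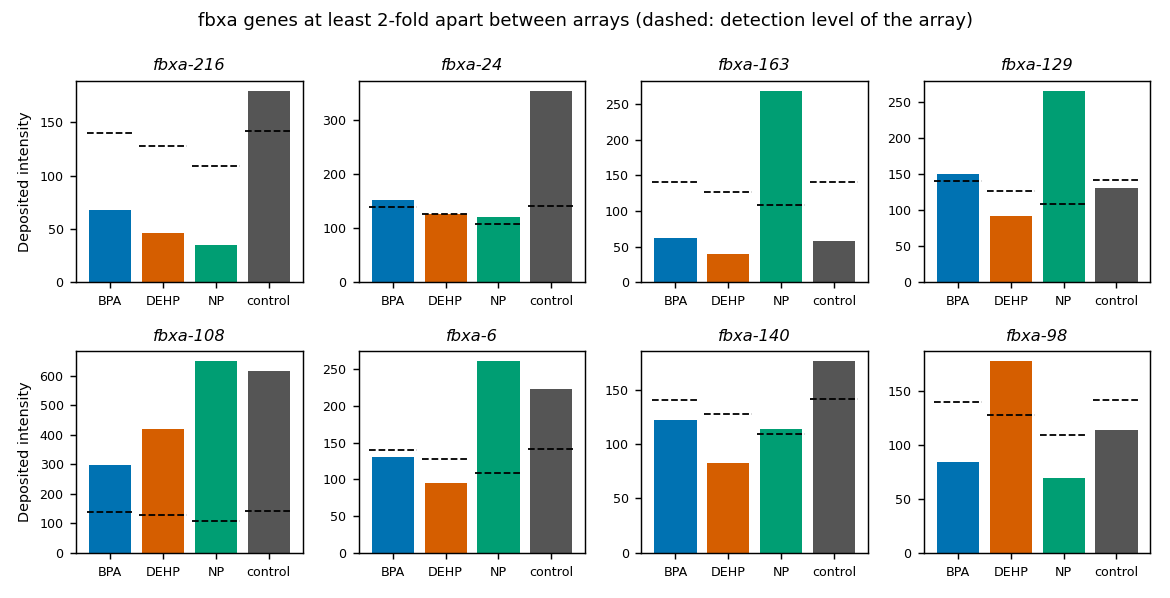
Deposited intensity of the 8 fbxa genes at least 2-fold apart between 2 arrays, on the BPA, DEHP, NP and control arrays, with the detection level of each array as a dashed line. For fbxa-216 and fbxa-24† the control bar is the tallest, for fbxa-163 and fbxa-129 the NP bar, and for fbxa-98 the DEHP bar.

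The exposed arrays were also set against each other, since all 3 were of worms without food in the same medium, though at amounts that were not matched. BPA against DEHP gave 1 called gene of 35 detected (2.86%), fbxa-98, which was lower with BPA. Of all genes in this comparison 4.94% were called, 2.82% higher and 2.11% lower with BPA. The intensity of fbxa-98 was 84.0 with BPA, 178 with DEHP and 69.4 with NP, with 114 on the control array. The DEHP array alone was above the detection level, so fbxa-98 was detected only through its high array. Its lower values on the other arrays were therefore built in. The relative log2 change was -1.09 for BPA against DEHP and 1.37 for DEHP against NP. Against the control, DEHP read 0.63.

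BPA against NP gave 3 called genes of 40 (7.5%), and all 3 were lower with BPA. Of all genes 8.93% were called, 6.61% higher and 2.33% lower with BPA. The fbxa genes were fbxa-163 (-2.14), fbxa-108 (-1.15) and fbxa-6 (-1.03). DEHP against NP gave 4 called genes of 41 (9.76%), with fbxa-98 higher and fbxa-163 (-2.76), fbxa-129 (-1.53) and fbxa-6 (-1.44) lower with DEHP. Of all genes 7.46% were called, 5.37% higher and 2.09% lower with DEHP. The phenols BPA and NP thus had 3 fbxa genes at least 2-fold apart, BPA and the diester DEHP 1, and DEHP and the phenol NP 4. Without replicates these numbers have no error, and no similarity of compounds can be read from them. They include fbxa-98 and fbxa-163, each detected on 1 array alone, whose differences from the other arrays were built in. The medians of the fbxa genes were 0.03 for BPA against DEHP, -0.24 for BPA against NP and -0.21 for DEHP against NP.

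The fbxa genes lie in tandem groups, so neighbours were looked at together. In the RefSeq order of coding genes and pseudogenes, 94 of the 171 genes had another fbxa gene directly beside them, in 36 groups that span up to 10 fbxa genes, not all of them on the arrays. Detection was found for 27 of these (28.7%) and for 17 of the 77 genes without such a neighbour (22.1%). Of 54 adjacent pairs with both genes on the arrays, 10 pairs were detected as a whole, 11 in 1 gene and 33 in neither. The group of 10, on chromosome III, holds fbxa-75, and none of its 5 genes on the arrays was detected.

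The groups with at least 3 detected genes, a limit chosen after the values were seen, were on chromosomes III and V. On chromosome V, fbxa-192, fbxa-193, fbxa-129 and fbxa-108 lie side by side with fbxa-191, which was not detected. The intensities of fbxa-192 were 152, 160 and 176 on the BPA, DEHP and NP arrays, against 142 on the control array, and those of fbxa-193 were 89.0, 84.7 and 156.5, against 107.9. All 4 detected genes of the group had their highest intensity on the NP array, although the NP change of fbxa-108 was 0.07, and those of fbxa-192, fbxa-193 and fbxa-129 were 0.31, 0.53 and 1.02. As fbxa-193 was detected on the NP array alone, its highest value there was built in. Of all detected genes, 35.95% had their highest centred value on the NP array. Differences on the BPA array were not alike within the group, with 0.11 for fbxa-192 and -1.05 for fbxa-108.

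The second group on chromosome V holds fbxa-107, fbxa-210 and fbxa-211. The intensities of fbxa-211 were 146, 110.1 and 205 on the BPA, DEHP and NP arrays, against 151 on the control array, with relative changes of -0.04, -0.46 and 0.44. It was highest with NP, as was fbxa-210, while fbxa-107 was highest with BPA. On chromosome III, fbxa-63, fbxa-76 and fbxa-77 were detected and none was called. Their NP changes were 0.06, 0.15 and -0.37. On chromosome I, fbxa-216 lies beside the pseudogene fbxa-217, whose intensities were 181, 161 and 297 on the BPA, DEHP and NP arrays, against 318 on the control array. The relative changes of fbxa-217 were -0.81, -0.99 and -0.11, so it was below the control with BPA and DEHP by less than 2-fold, and near it with NP, where fbxa-216 was lowest.

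Of the other detected fbxa genes, 24 met no part of the naming rule. The rule took in every gene called against the control, so by construction none of these was called. Their intensities lay between 84.7 and 449, and their relative log2 changes between -0.99 and 0.72. The upper end was fbxa-153 with NP, at 274 against 165 on the control array, and its changes were 0.33 with BPA and 0.36 with DEHP. The gene fbxa-206† had the highest intensity with DEHP, at 177, 308 and 261 on the BPA, DEHP and NP arrays, against 250.2 on the control array, and relative changes of -0.49, 0.29 and 0.06. The pattern of fbxa-14 was similar in that DEHP was highest, with 154, 239 and 126, against 175. For fbxa-150 the 4 values were 234, 197 and 226, against 226, which are close to each other. Its other probe set was under the floor on every array, so the 2 probe sets of this gene do not give the same picture of its level.

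The genes of the CUL-6 ligase were read as well. Both fbxa-75 and fbxa-158 lay under the floor on all 4 arrays, at intensities of 1.74 to 16.6 for fbxa-75 and 4.13 to 16.98 for fbxa-158, so no difference between arrays can be read for them. Of the 11 genes listed for the intracellular pathogen response, 7 were detected, and pals-5, F26F2.1, F26F2.3 and F26F2.4, typically very low without infection, were not. The cullin gene cul-6 had intensities of 176, 178 and 110.0 on the BPA, DEHP and NP arrays, against 99.6 on the control array, with relative log2 changes of 0.83, 0.83 and 0.14, none called. Its control value was under the detection level and its probe set is of the _s_ or _x_ type, so these sizes are uncertain. Of the Skp1-related partners of CUL-6, skr-3 read -0.14, 0.11 and 0.07, skr-4 read 0.33, 0.80 and 1.09, and skr-5 read -0.80, -0.89 and -0.65. Only skr-4 with NP was called among these. The RING-protein gene rcs-1 read -0.39, -0.28 and 0.05. The repressor gene pals-22 was not called, and pals-25, its antagonist, was called lower with DEHP (-1.09), at an intensity of 71.8 against 152 on the control array.

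The median of the SCF core list was above the median gene on each exposed array. With NP 3 members were called higher, where 1.92% of all detected genes were called higher. The medians over 21 detected genes were 0.23 for BPA, 0.16 for DEHP and 0.25 for NP, beside -0.05, -0.13 and 0.06 for the fbxa genes. Single members lay on both sides, and cul-1, skr-1 and skr-5 were below the median gene on all 3 exposed arrays. The called genes were skr-14 (1.63), skr-4 (1.09) and skr-17 (1.00) with NP, all Skp1-related adaptors that link an F-box protein to the cullin. For skr-14 the control value of 113 was under the detection level, and its probe set is of the _s_ or _x_ type. The value of skr-17 was just at the threshold. The scaffold gene cul-1 read -0.05, -0.04 and -0.12. The characterised F-box genes had medians of 0.18, 0.13 and 0.16 with none called, and the largest change was that of lin-23 with NP (-0.92). The relative fog-2 read -0.07, 0.13 and 0.56, and ftr-1 read -0.38, -0.57 and 0.13.

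Among the other adaptor families few genes were called. Of the detected fbxc genes, fbxc-58 was called higher with NP (1.10), and the medians were 0.28, 0.45 and 0.34 over 9, 11 and 10 genes. The intensities of fbxc-58 were 54.4, 119.8 and 125.7 on the BPA, DEHP and NP arrays, against 58.4 on the control array. As fbxc-58 was detected on the NP array alone, its difference there was built in, and its DEHP value just missed the detection level. For the fbxb genes the medians were 0.20, 0.55 and 0.32 over 3 genes each, with none called. For the math and bath genes they were 0.01, -0.02 and 0.05 over 18, 18 and 20 genes, and math-4 was called lower with NP (-1.11). The NP value of math-4, at 102, was under the detection level, and its probe set is of the _s_ or _x_ type. Nothing in these lists was tested against the fbxa genes.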

How the data were processed

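RNA of 4 samples, 1 per group, was prepared with a Qiagen RNeasy kit, per the labels' protocols. The labelling text there names fibroblast cultures, against the worm source in the other labels. As deposited by the authors, each array holds 22625 probe-set values on a linear intensity scale, and their mean without the lowest and highest 2% was 500.1 on every array. How they were summarised, with which software and on which genome build, is not given in the sources used here.

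After 77 control probe sets were set aside, log2 intensities of 22548 were shifted to a common median (-0.12 BPA, 0.02 DEHP, 0.24 NP, -0.13 control), floored at the pooled 25th percentile, and collapsed to the probe set with the highest mean per gene. Probe sets of several genes (887) or none (895) were left out, 16 naming fbxa genes among them. All 171 symbols were current in the gene table of WBcel235. Python 3.11.15, pandas 2.3.3 and statsmodels 0.14.6 were used. Simulated data with planted changes above 2-fold in bright probe sets served to test the calling. They do not cover calls near 2-fold or dim genes, as most fbxa genes are. With 1 array per group no test was made, and for arrays depth does not apply.

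Fully described genes were the 10 with the highest mean, up to 6 called per direction and comparison with the control, 2 per direction between exposed arrays, those called on all 3 arrays, fbxa-75, fbxa-158 and 3 on each side of the detection level. The members and lists were chosen with earlier results of these data known. Alternatives were quantile, as-deposited and loess (span 0.3) scaling, no or a 75th percentile filter, no floor, no centring, averaged probe sets and no _s_ or _x_ sets. Chosen after seeing the data were a lowess correction for gene span and leaving out the NP array.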

Additional observations from a re-analysis of the deposited data

Results flagged for a closer look

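Probe sets assigned to several genes entered no comparison, and 16 of them name fbxa genes. Of these, 4 were detected, and 3 were above both the detection level and the control on an exposed array. The probe set shared by fbxa-157 and fbxa-156 had an intensity of 508 with BPA, 397 with DEHP and 521 with NP, against 381 on the control array. Its relative log2 changes were 0.42, 0.054 and 0.45, where the probe set of fbxa-156† alone gave -0.25, -0.04 and 0.48. The probe set shared by fbxa-208 and fbxa-77 had 169, 198 and 245, against 162.9, with changes of 0.056, 0.27 and 0.58, where fbxa-77 alone gave -0.44, -0.38 and -0.37. The probe set shared by fbxa-92 and fbxa-91 had 122 on the NP array against 106 on the control array, a change of 0.21. None reached 2-fold. With 1 array per group no sample could be set against others of its group.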

How the results depend on the processing

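No paired analysis was possible because each group has 1 array. The changes of single named genes moved by less than 1.5-fold under each setting that gave them a value, and none turned its sign once called. Of the 11 called changes from the control, that of fbxa-140 with DEHP was under 2-fold after quantile normalization, after loess, without a filter on dim genes and without centring, that of fbxa-129 with NP was under it after the correction for gene span, and the 3 of fbxa-24 had no value without _s_ and _x_ probe sets. At the 75th percentile as detection level 0 were left, because 5 fbxa genes are that bright: the counts of 3 lower for BPA, 4 for DEHP, 2 for NP and 2 on all 3 arrays, and of 2 higher for NP, came to 0, the medians were 0.10 for DEHP and 0.34 for NP, and the pairs of exposed arrays gave 0 for BPA against DEHP, 1 for BPA against NP and 0 for DEHP against NP. Without a filter on dim genes, BPA gave 1 higher gene and 7 lower ones, DEHP 3 higher and 7 lower, and NP 5 of each, the DEHP median was 0, and the pairs gave 11, 17 and 20. After quantile normalization the NP median was 0.30 and BPA against NP gave 5; after loess the median was 0.29 and the pairs with NP gave 5 and 7. Without centring the medians were 0.033 for DEHP and 0.44 for NP, and the pairs with NP gave 7 each. Without _s_ and _x_ probe sets 1 gene was lower for NP and 1 on all 3 arrays. With the correction for gene span, 1 was higher for NP and BPA against NP gave 1. Without the NP array the genes at least 2-fold lower on both other exposed arrays were again 2. That count could not come out smaller, as genes lower on all 3 arrays are among them. The causes were not tested. The dim signal of most fbxa genes and the single arrays limit all of these values.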
